A study of Homo sapiens with 4 samples.

Results

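The genes described here are the 10 that form the switch for entry into mitosis: the kinase CDK1, its cyclins CCNA2, CCNB1 and CCNB2, the phosphatases CDC25A, CDC25B and CDC25C, the inhibitory kinases WEE1 and PKMYT1, and the polo-like kinase PLK1. They were picked by symbol, and all 10 were found among the 25192 genes of the deposited tables. All 10 also passed the filter on low counts, which kept 14099 genes. RNA was sequenced from 4 libraries of A549 cells, which are an established line from a human lung adenocarcinoma. In 2 libraries the cells carried the control empty virus (EV), a retrovirus that makes GFP alone, and in 2 they carried the FCN3 virus, which makes V5-tagged FCN3 together with GFP. FCN3 is a lectin of the complement system that is normally secreted. All cells grew in RPMI-1640 with fetal bovine serum, and RNA was taken 48 h after infection. Both groups are thus 1 cell line with ectopic expression, and the sources used here do not say whether GFP-positive cells were sorted or whether replicates were separate cultures, so p-values measure only the spread between these samples.

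Expected counts summed to between 16353554 and 35733735 per library, with replicate 1 sequenced more deeply in each group. FCN3 had 1 and 0 counts in the EV libraries and 722388 and 448352 counts with the FCN3 virus. The epithelial keratins KRT8 and KRT18 were at 1612 TPM or more in every library, whereas EPCAM and CDH1 reached at most 3.65 and 9.53 TPM. PTPRC, PECAM1, SFTPB, SFTPC and PDGFRB, which mark leukocytes, endothelium, alveolar type II cells and mesenchyme, stayed at or below 0.19 TPM, and the fibroblast collagen COL1A1 lay between 2.70 and 8.12 TPM. CDKN2A, which is deleted in A549, was at or below 0.22 TPM.

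Entry into mitosis is driven by CDK1 bound to a B-type cyclin. Until late G2 the complex is held inactive by phosphates that WEE1 and the membrane-bound PKMYT1 place on CDK1. CDC25 phosphatases remove these phosphates, and PLK1 acts on CDC25, WEE1 and PKMYT1 so that activation feeds on itself. Most of these genes are transcribed mainly in late S phase, G2 and mitosis. That timing is known to depend on CCAAT boxes, bound by NF-Y, and on the cell cycle homology region (CHR), bound by the MuvB complex together with B-MYB and FOXM1.

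The promoters of the members were therefore read from RefSeq (GRCh38.p14), as windows from 250 bases before to 50 bases after each annotated transcript start. Windows were found for 8 of the 10 members, 15 windows in all, and each matched the GRCh37 genome exactly once. WEE1 and PKMYT1 were not among them. The windows were searched on both strands for CCAAT, for the CHR letters (TTTGAA, or else TTTAAA), and for letters of the E2F site, which were TTGGCGC, alternatively TTCGCGC, alternatively TTCCCGC. Of these, TTTAAA reads the same on both strands. No stretch of CDC25B is printed, although its windows hold matches before a start too. The stretches that follow each carry at least 1 match to these letters before an annotated start. Those of CDK1 and CDC25C are cut to 30 bases, since they lie within an annotated UTR of another transcript of the same gene, which starts further upstream. They run 5′ to 3′ on the strand of the gene, with matches in capitals, and coordinates are those of GRCh37.
CCNB1, chr5:68462857-68462956, plus strand: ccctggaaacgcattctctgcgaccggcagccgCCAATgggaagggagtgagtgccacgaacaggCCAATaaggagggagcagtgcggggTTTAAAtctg
CCNB2, chr15:59397225-59397324, plus strand: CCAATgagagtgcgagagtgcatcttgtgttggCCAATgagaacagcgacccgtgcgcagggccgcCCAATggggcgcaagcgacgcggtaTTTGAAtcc
PLK1, chr16:23690090-23690189, plus strand: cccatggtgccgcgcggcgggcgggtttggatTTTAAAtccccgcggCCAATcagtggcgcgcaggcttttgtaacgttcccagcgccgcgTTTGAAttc
CCNA2, chr4:122745059-122745158, minus strand: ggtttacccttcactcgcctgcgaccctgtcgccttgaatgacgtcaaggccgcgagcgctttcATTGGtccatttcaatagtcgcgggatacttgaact
CDC25A, chr3:48229928-48230027, minus strand: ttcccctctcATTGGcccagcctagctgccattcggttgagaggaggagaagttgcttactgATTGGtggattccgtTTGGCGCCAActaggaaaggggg
CDK1, chr10:62538158-62538187, plus strand: ATTGGctgcTTTGAAagtctacgggctacc
CDC25C, chr5:137667518-137667547, minus strand: ataggttactgggctggcggaaggTTTGAA

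CCAAT, or its reverse complement ATTGG, stood within 100 bases before at least 1 annotated start in all 8 members with a window, and in 21.6% of all 27303 genes in the promoter table. The CHR letters stood in the same stretch in 5 of the 8 members (CCNB1, CCNB2, CDC25C, CDK1 and PLK1), against 10.1% of all genes. Each of these 5 also held CCAAT there, against 2.0% of all genes. Some members have several windows, which gives them more places for a match. Counted by window, CCAAT stood in that stretch in 9 of the 15 member windows, against 18.1% of all windows. The CHR letters stood there in 5 of the 15, against 8.2%. In CCNB1 and in 1 window of CDC25C a match began 30 bases before the start, and in CCNB2 and PLK1 one began 29 bases before it. PLK1 held another that began 88 bases before the start, and in CDK1 matches began 69 and 13 bases before a start. The same CDC25C match lay 43 to 48 bases after the start of another window. In CCNA2 the stretch held 1 CCAAT match, 56 bases before the start, and none of the CHR letters searched. It also holds cttgaa, which differs from TTTGAA in 1 base and was not among the letters searched. E2F letters stood within 100 bases of a start in CDC25A, CDC25B and CDK1, against 5.2% of all genes. The 2 matches in CDC25A overlap each other. These matches are descriptions of letters, not measured binding sites.

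Levels of the 10 genes were compared first, as TPM, which corrects for transcript length. In EV cells CCNB1 was the highest, at 308 ± 34.2 TPM (SD, n = 2), followed by PLK1 at 214 ± 10.1 TPM. CCNB2, CDK1 and CDC25B came next with means of 149, 148 and 146 TPM, and their libraries overlapped, so that their order cannot be told. CCNA2 (73.0 TPM) and PKMYT1 (56.6 TPM) lay lower. WEE1 and CDC25C, at 18.5 and 18.1 TPM, overlapped each other, and CDC25A was the lowest at 14.6 TPM. With the FCN3 virus CCNB1 and PLK1 again led and CDC25A was again the lowest. CCNB2, CDK1 and CDC25B overlapped there too, as did CCNA2 and PKMYT1. The summed level of the 10 genes was 1195 and 1097 TPM in EV cells against 646 and 617 TPM with the FCN3 virus, the latter mean being 55.1% of the former. TPM is a share of the library total, of which FCN3 itself held 41618 and 44730 TPM with the FCN3 virus. The median difference in log2(TPM + 1) was -0.80 for the 10 genes and -0.07 for all tested genes.

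**Figure D1:**
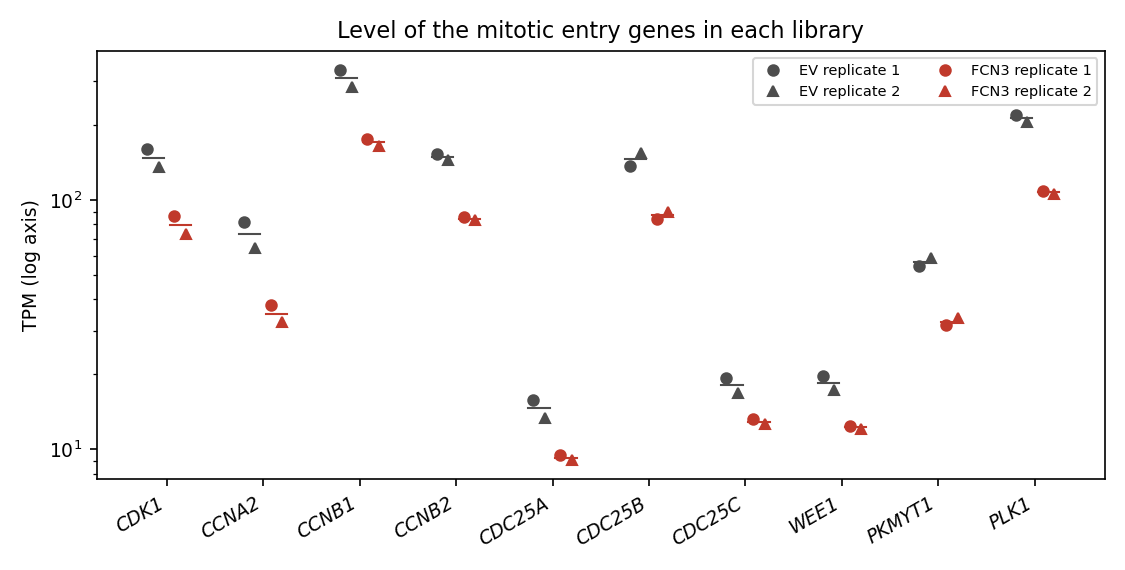
TPM of each gene (log axis) in the 2 EV libraries (grey) and the 2 FCN3 virus libraries (red). Circles are replicate 1, triangles replicate 2, and short bars the mean of 2. For all 10 genes both FCN3 virus libraries lie below both EV libraries.

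The comparison asked whether these genes differed between the FCN3 virus and EV. Both FCN3 virus libraries lay below both EV libraries for all 10 genes, in CPM (counts scaled by library size with TMM normalization) as well as in TPM. Among all tested genes, 26.5% lay below in this way in CPM. The median log2 fold change of the 10 genes was -0.71, and that of all tested genes was 0.02. All 10 estimates were below 0, as were 48.1% of all estimates. In edgeR's quasi-likelihood test at an FDR of 0.01, PLK1 was the only 1 of the 10 called, where 0.965% of all tested genes were called and 0.227% were called as lower. The other 9 had adjusted p from 0.0137 to 0.152 in that test, and 7 of the 10 passed an FDR of 0.05, where 7.19% of tested genes did and 2.77% did as lower. With the replicate number as a block in the same test, which compares libraries of the same number, all 10 were called lower, against 36.2% of tested genes called in either direction and 17.1% called lower. With 4 libraries, the spread of a gene in the fit with the block is estimated mostly by sharing information across genes. The very small adjusted p-values of that fit rest on this sharing. The labels give shared replicate numbers but do not say what a number stands for. DESeq2 without the block called 7 of the 10, against 7.91% of its tested genes in either direction and 3.47% as lower. With the block it called 9, against 15.8% in either direction and 7.91% as lower. In bulk RNA, fewer cells in G2 and mitosis cannot be told apart from less of these transcripts per cell.

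**Figure D2:**
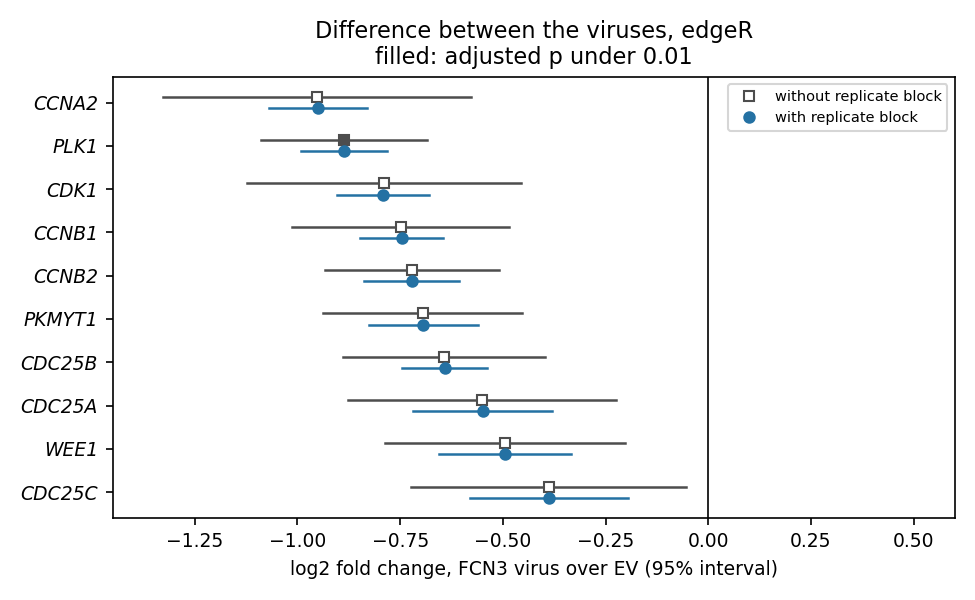
Log2 fold change (FCN3 virus over EV) of each gene from edgeR without (grey squares) and with (blue circles) the replicate number as a block, with 95% intervals; filled symbols have an adjusted p under 0.01. Estimates run from -0.95 for CCNA2 to -0.39 for CDC25C, only PLK1 is filled without the block, and every gene is filled with it.

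CDK1, the kinase itself, lies on chromosome 10 (62538089 to 62554610, plus strand; all positions are those of GRCh37). CDK1 was at 160.5 and 136 TPM in EV cells and at 86.5 and 72.9 TPM with the FCN3 virus. Replicate 1 was the higher in both groups, and the groups did not overlap. The log2 fold change was -0.79 (standard error 0.13, edgeR adjusted p = 0.0316, and 1.65e-17 with the block), which is 1.73-fold lower.

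CCNA2, the A-type cyclin that partners CDK2 in S phase and CDK1 in G2, lies on chromosome 4 (122737599 to 122745038, minus strand). Its levels were 81.6 and 64.5 TPM in EV cells and 37.9 and 32.3 TPM with the FCN3 virus. This was the lowest fold change of the 10, at -0.95 on the log2 scale or 1.94-fold lower, and also the one with the largest standard error (0.15). It did not pass 0.01 without the block (edgeR adjusted p = 0.0264) and passed with it (1.95e-19). CCNA2 overlaps EXOSC9, a gene on the opposite strand that was also counted, and its expected counts were not whole. The libraries were stranded, but the strand setting of the counting is not given in the sources used here, so that reads of overlapping genes may not have been separated.

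CCNB1 and CCNB2 encode the B-type cyclins that carry CDK1 into mitosis. CCNB1 (chromosome 5, 68462962 to 68474072, plus strand) was at 333 and 284 TPM in EV cells and 176 and 165 TPM with the FCN3 virus. Its log2 fold change was -0.75 (standard error 0.11, edgeR adjusted p = 0.0206, and 3.88e-18 with the block). CCNB2 (chromosome 15, 59397325 to 59417244, plus strand) was at 154 and 145 TPM against 85.4 and 83.1 TPM. Its replicates lay closer together, and the log2 fold change was -0.72 (standard error 0.08, edgeR adjusted p = 0.0137, and 1.61e-15 with the block). The sum of the 3 cyclins over CDK1, both in TPM, was 3.54 and 3.63 in EV cells against 3.46 and 3.85 with the FCN3 virus. In that ratio, chosen after the values were seen, the groups overlapped.

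The 3 CDC25 phosphatases differed from each other in level more than in fold change. CDC25B, the form thought to start CDK1 activation in G2, made up 79.5% and 83.7% of the CDC25 sum in EV cells and 78.7% and 80.6% with the FCN3 virus. CDC25B (chromosome 20, 3767419 to 3786768, plus strand) was at 137 and 155 TPM in EV cells and 84.0 and 90.1 TPM with the FCN3 virus, higher in replicate 2 of both groups. Its log2 fold change was -0.64 (standard error 0.10, edgeR adjusted p = 0.0246, and 1.96e-15 with the block). CDC25A, which also acts on CDK2 at the start of S phase, lies on chromosome 3 (48198636 to 48229907, minus strand) and was at 15.8 and 13.4 TPM against 9.48 and 9.08 TPM. Its log2 fold change of -0.55 (standard error 0.13) did not pass without the block (edgeR adjusted p = 0.0694) and passed with it (2.92e-07).

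CDC25C, which amplifies CDK1 activity at mitotic entry, lies on chromosome 5 (137620958 to 137674044, minus strand). It was at 19.4 and 16.9 TPM in EV cells and at 13.2 and 12.7 TPM with the FCN3 virus. The groups did not overlap, but this was the smallest difference of the 10 genes, 1.31-fold, with a log2 fold change of -0.39 and a 95% interval from -0.72 to -0.05. It had the highest adjusted p of the 10, 0.152 in edgeR (6.95e-04 with the block). In DESeq2 it did not pass 0.01 either without the block (adjusted p = 0.26) or with it (0.116). CDC25C also had the fewest counts, between 279 and 729 per library, and it overlaps FAM53C on the opposite strand. Its interval overlapped that of PLK1 (-1.09 to -0.68) narrowly without the block. With the block the interval of CDC25C (-0.58 to -0.20) and that of PLK1 (-0.99 to -0.78) did not overlap. The difference between the 2 fold changes was not tested.

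WEE1, the nuclear kinase that restrains CDK1, was lower with the FCN3 virus, as were the genes that it opposes. WEE1 (chromosome 11, 9595217 to 9615004, plus strand) was at 19.7 and 17.3 TPM in EV cells and 12.4 and 12.1 TPM with the FCN3 virus. Its log2 fold change was -0.49 (standard error 0.12, edgeR adjusted p = 0.0692, and 7.94e-07 with the block). PKMYT1, its membrane-bound relative (chromosome 16, 3018025 to 3030480, minus strand), was at 54.5 and 58.7 TPM against 31.5 and 33.7 TPM, higher in replicate 2 of both groups. PKMYT1 had a log2 fold change of -0.70 (standard error 0.10, edgeR adjusted p = 0.0204, and 5.92e-13 with the block). It overlaps KREMEN2 and PAQR4 on the opposite strand, and its counts were not whole.

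The balance between activating phosphatases and inhibitory kinases was described by the summed TPM of the 3 CDC25 genes over that of WEE1 and PKMYT1, a ratio chosen after the values were seen. It was 2.31 and 2.44 in EV cells against 2.43 and 2.44 with the FCN3 virus. The groups overlapped in this ratio of transcripts, while both its terms were lower with the FCN3 virus. PKMYT1 over WEE1 was 2.76 and 3.40 in EV cells against 2.54 and 2.78 with the FCN3 virus, where the groups overlapped as well.

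PLK1 (chromosome 16, 23688977 to 23701688, plus strand) was at 221 and 206 TPM in EV cells and at 109 and 106 TPM with the FCN3 virus. The replicates of each group lay close together and far from the other group. PLK1 fell by 0.89 on the log2 scale (standard error 0.08, edgeR adjusted p = 0.00805 without the block), or 1.85-fold, and the block did not change its call. Without FCN3 replicate 1 its edgeR adjusted p was 0.028 (log2 fold change -0.92), and without FCN3 replicate 2 it was 0.0236 (-0.86), so that the call was lost. In each of these fits 9 of the 10 genes were lower with an unadjusted p under 0.05, against 7.71% of tested genes without FCN3 replicate 1 and 6.64% without FCN3 replicate 2 (16.9% and 16.0% in either direction). The log2 fold change of PLK1 was -0.83 without EV replicate 1 and -0.94 without EV replicate 2.

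Within replicate numbers all 20 differences were below 0. The log2 difference between the FCN3 virus and EV lay between -0.99 (CCNA2, replicate 1) and -0.33 (CDC25C, replicate 2). In none of the members did the differences of replicate 1 and replicate 2 lie more than 0.15 apart on the log2 scale. For PLK1 they were -0.90 and -0.87, and for CCNB2 they were -0.73 and -0.71. The share of all tested genes with both differences below 0, or with differences this close, was not computed. Genes outside the lists could lie as close, as did AARS (1.266 and 1.271) and AURKB (-0.841 and -0.831). The differences of BUB1 lay farther apart (-0.826 and -0.614). These values describe pairs of libraries. An exact permutation test of 2 libraries against 2 cannot give a two-sided p below 0.333.

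Part of the spread within a group followed the replicate number. For 8 of the 10 genes replicate 1 exceeded replicate 2 whichever virus was used, where 39.8% of all tested genes were, and CDC25B and PKMYT1 were the exceptions. The log2 difference was greatest in CCNA2, at 0.33 in EV cells and 0.25 with the FCN3 virus. With condition in the model, edgeR's quasi-likelihood test called a difference between the replicate numbers at an FDR of 0.01 for CCNA2, CDK1 and CCNB1 (adjusted p = 1.23e-04, 3.86e-04 and 0.00811), as for 22.2% of all tested genes. Replicate 1 was the higher in these 3 genes, and 10.5% of all tested genes were called with replicate 1 higher. MKI67, a marker of cycling cells, followed the same order, with 96.3 and 70.3 TPM in EV cells and 48.0 and 37.8 TPM with the FCN3 virus (log2 fold change -0.85, edgeR adjusted p = 0.062, and 8.63e-21 with the block). PCNA, which marks S phase, was at 692 and 560 TPM against 443 and 365 TPM (log2 fold change -0.53, edgeR adjusted p = 0.101, and 3.57e-13 with the block). The part of such differences between replicate numbers in the member values was not tested.

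RSEM also gives for each gene the mean length of its transcripts, weighted by their abundance, which moves when the mix of transcripts does. Of the 10 genes 6 have more than 1 transcript in the gene models used by the authors. CDC25A was the only 1 of the 6 whose groups did not overlap, as was the case for 34.1% of tested genes with several transcripts. Its length was 3697 and 3683 bases in EV cells and 3703 and 3706 bases with the FCN3 virus, a mean difference of 14.7 bases. In CDK1, CDC25B, CDC25C, WEE1 and PKMYT1 the groups overlapped, with mean differences between -6.55 bases (WEE1) and 0.41 bases (CDK1).

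Another 40 genes of the mitotic entry network were examined in the same fit, and 38 passed the filter. The A-type cyclin CCNA1 and the oocyte kinase WEE2 did not, both being at or below 0.06 TPM in every library. Without the block 2 of the 38 were called lower and 1 higher (0.227% and 0.738% of all tested genes were), and with it 14 lower and 7 higher (17.1% and 19.1% of all tested genes). An unadjusted p under 0.05 was found for 20 of them in edgeR without the block, against 25.1% of all tested genes, and DESeq2 without the block called 13, against 7.91% of its tested genes. Their median log2 fold change was -0.12, against -0.71 for the 10 members.

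Of 8 genes that activate PLK1 or the transcription of G2 genes, MYBL2, which encodes B-MYB, and AURKA, the kinase that activates PLK1, were called lower. MYBL2 was at 130 and 131 TPM in EV cells and 61.3 and 62.7 TPM with the FCN3 virus (log2 fold change -0.97, edgeR adjusted p = 0.0053). AURKA was at 165 and 164 TPM against 84.1 and 83.0 TPM (log2 fold change -0.88, edgeR adjusted p = 0.00702). In both genes the replicates of a group nearly coincided. The expected counts of AURKA were not whole, while those of MYBL2 were. FOXM1, the transcription factor of G2 genes, was at 106 and 109 TPM against 61.2 and 61.9 TPM and did not pass 0.01 without the block (log2 fold change -0.70, edgeR adjusted p = 0.0121, and 2.38e-16 with it). The expected counts of FOXM1 were not whole either. LIN37, a subunit of MuvB, had a log2 fold change of 0.37 (edgeR adjusted p = 0.328, and 0.00496 with the block), and no other MuvB subunit of the list passed in either edgeR fit.

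The median log2 fold change was 0.04 over the 5 genes of CDK activation and binding and -0.11 over the 5 of the phosphatase branch. With the block each list had 1 gene called lower, and the first list also had 1 called higher. Of all tested genes 17.1% were called lower and 19.1% higher in that fit. CKS2, an adaptor of CDK1, had a log2 fold change of -0.66 (edgeR adjusted p = 0.0381, and 5.11e-15 with the block), and CKS1B one of -0.12 (edgeR adjusted p = 0.464, and 0.0599 with the block). CDK7, the catalytic subunit of the CDK-activating kinase, had one of 0.25 (edgeR adjusted p = 0.182, and 0.00128 with the block), and its partner MNAT1 one of 0.14, which passed in neither edgeR fit. MASTL, the Greatwall kinase that holds PP2A-B55 in check during mitosis, was at 31.2 and 27.1 TPM against 20.6 and 20.6 TPM (log2 fold change -0.40, edgeR adjusted p = 0.0832, and 1.55e-06 with the block). Its substrate ARPP19 and the B55 subunits PPP2R2A and PPP2R2D had log2 fold changes of -0.14, 0.13 and -0.11 and passed in neither edgeR fit.

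Among 7 genes of checkpoints that hold cells before mitosis, GADD45A, a stress gene whose protein can dissociate CDK1 from cyclin B1, rose from 47.8 and 55.1 TPM to 138 and 161 TPM (log2 fold change 1.64, edgeR adjusted p = 0.00451). CDKN1A, which encodes the CDK inhibitor p21, was at 159 and 173 TPM in EV cells and 269 and 264 TPM with the FCN3 virus. It did not pass 0.01 without the block (log2 fold change 0.78, edgeR adjusted p = 0.0122, and 1.85e-18 with it). SFN, the 14-3-3 protein that keeps CDK1 and cyclin B1 in the cytoplasm, had a log2 fold change of 0.30 (edgeR adjusted p = 0.191, and 4.83e-06 with the block). The kinase CHEK1, which acts on CDC25 and WEE1 after DNA damage, had one of -0.42 (edgeR adjusted p = 0.0722, and 8.29e-07 with the block).

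Of 8 genes of the proteolysis of mitotic regulators none was called in edgeR without the block, where 6 were lower with an unadjusted p under 0.05, against 11.6% of all tested genes. DESeq2 without the block called 4 as lower, against 3.47% of its tested genes, and edgeR with the block called 6 as lower, against 17.1%. Their median log2 fold change was -0.45. CCNF, whose protein is the substrate receptor of a ubiquitin ligase, was at 29.2 and 26.2 TPM against 13.8 and 13.1 TPM (log2 fold change -0.94, edgeR adjusted p = 0.0122, and 3.05e-17 with the block). FBXO5, an inhibitor of the anaphase-promoting complex, had a log2 fold change of -0.59 (edgeR adjusted p = 0.056, and 3.49e-09 with the block). UBE2S and CDC20, which work with that complex to destroy cyclin B, had log2 fold changes of -0.51 and -0.47 (edgeR adjusted p = 0.026 and 0.0312, and 9.30e-13 and 3.61e-11 with the block).

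The relatives of the members went in both directions. The stress-responsive polo kinases PLK2 and PLK3 were higher with the FCN3 virus in both libraries, PLK2 at 209 and 197 TPM against 288 and 295 TPM and PLK3 at 8.43 and 9.67 TPM against 15.1 and 16.2 TPM. Their log2 fold changes were 0.63 and 0.90 (edgeR adjusted p = 0.0156 and 0.026, and 1.07e-15 and 6.99e-11 with the block). PLK4, the kinase of centriole duplication, was lower, as PLK1 was, with 20.9 and 20.3 TPM against 14.2 and 12.9 TPM (log2 fold change -0.51, edgeR adjusted p = 0.0537, and 8.39e-08 with the block). CDK2, the S phase kinase, was at 73.1 and 69.1 TPM against 43.4 and 41.5 TPM (log2 fold change -0.64, edgeR adjusted p = 0.0202, and 6.46e-13 with the block).

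**Figure D3:**
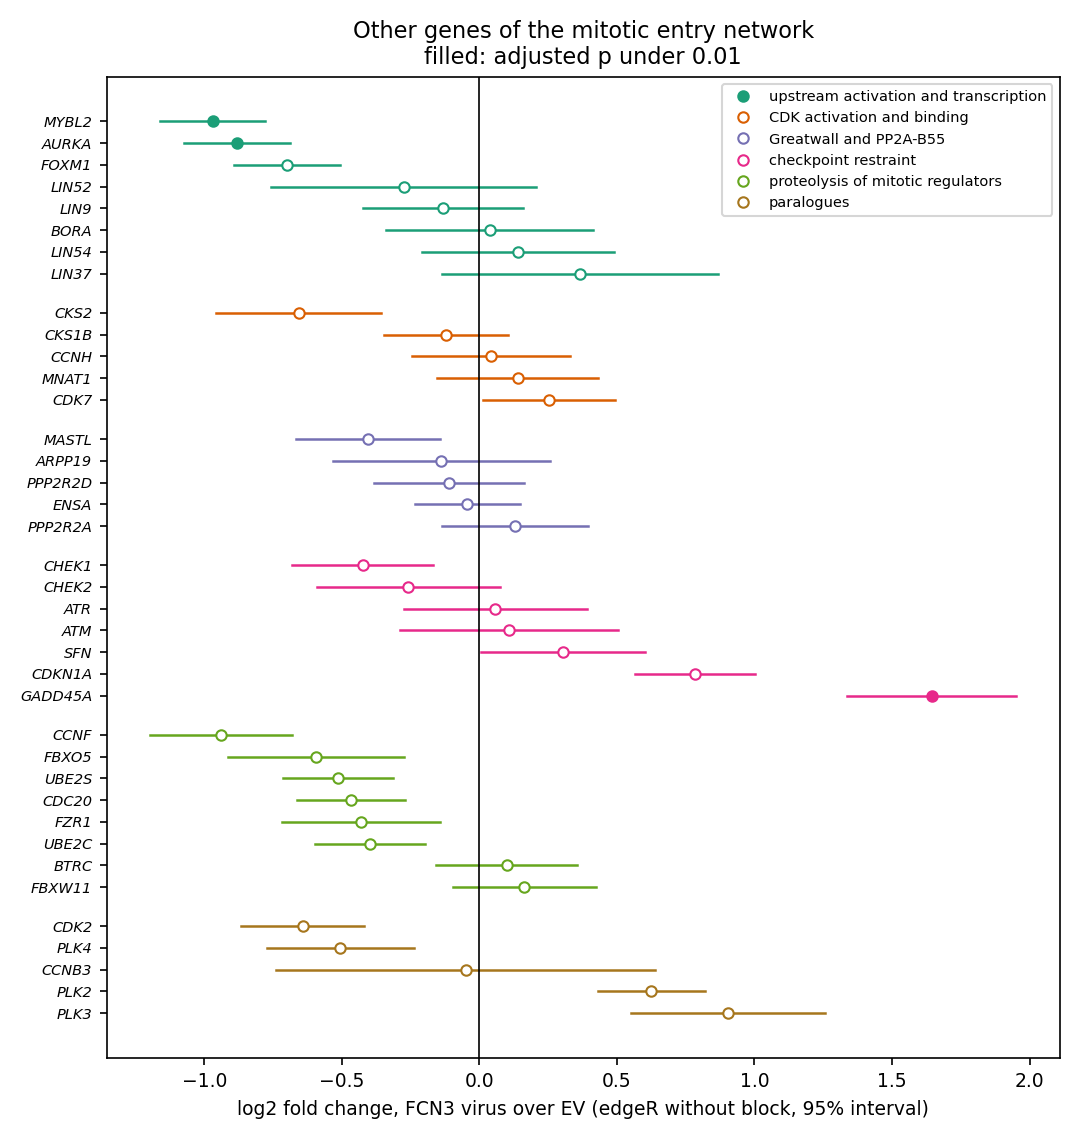
Log2 fold change (FCN3 virus over EV) with 95% interval, from edgeR without the block, of the 38 tested network genes outside the 10 members, coloured by list; filled points have an adjusted p under 0.01. MYBL2 and AURKA are the filled points below 0 and GADD45A the one above it, while PLK2 and PLK3 lie above 0 and PLK4 and CDK2 below.

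The genes whose pattern was most like that of CDK1 were sought among 8202 tested genes outside the lists with a mean of at least 10 TPM, by the Euclidean distance between log2 CPM values centred on the mean of the 4 libraries. The nearest were DSCC1, LMNB1, EFHD2, FAM83D and RFC5, at distances between 0.00886 and 0.0644. Among the members CCNB1 was nearest to CDK1 (distance 0.12), with 26 of those 8202 genes nearer, and CDC25C was farthest (0.43), with 494 genes nearer. With 4 libraries such likeness rests on the difference between the groups and on that between the replicate numbers.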

How the data were processed

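Per the labels and the methods, the authors made stranded mRNA libraries, sequenced them from both ends, trimmed reads with Fastx_toolkit, aligned them to hg19 (GRCh37) with STAR 2.6.1d and estimated abundance with RSEM. The strand setting of the counting is not given in the sources used here. The deposited tables hold expected counts, which are estimated counts without normalization, and TPM and FPKM, which the authors' RSEM run normalized for length and depth. FPKM was not used. The deposited length column, in bases, was used as a description. Gene models are RefSeq transcripts.

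Expected counts were rounded and tested in R 4.3.3 with edgeR 4.0.16 (filterByExpr, TMM, quasi-likelihood test, Benjamini-Hochberg over all 14099 tested genes, FDR 0.01). Each standard error is the size of the log2 fold change over the root of its F statistic. DESeq2 1.42.0, limma 3.58.1 on log2(TPM + 1) and on log2(TPM + 0.1), RLE factors, other filters, an older edgeR method, FCN3 left out, a replicate block and each library left out were alternatives. Scripts were tested on simulated data. The members and lists were chosen with earlier results of these data known. Named genes are the members, and of each list the called genes and the 4 largest changes. Across 8309 genes with an average log2 CPM above 4, differences between replicates 1 and 2 in EV and FCN3 libraries had a Pearson's r of 0.807. Gene locations come from GENCODE on GRCh37, and promoters from RefSeq.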

Additional observations from a re-analysis of the deposited data

How the results depend on the processing

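All 10 members had a negative log2 fold change under every alternative, and their median lay between -0.81 (limma on log2(TPM + 0.1)) and -0.67. The number called at an FDR of 0.01, 1 in edgeR without the block, was 7 in DESeq2, 7 at an FDR of 0.05, 10 in edgeR with the replicate block, 9 in DESeq2 with the replicate block, and 10 in the older edgeR method with the replicate block, an alternative chosen after seeing the data. Leaving out single libraries gave 0 (without FCN3 replicate 1 or 2, PLK1 then being lost, while in each case 9 of the 10 were lower with an unadjusted p under 0.05, against 7.71% and 6.64% of tested genes) to 3 (without EV replicate 2). The number called was 1 under the RLE factors, both other filters, the older edgeR method without the block, both limma fits and FCN3 left out. For those fits the share of all tested genes called at an FDR of 0.01 was not computed. Nor was it computed for the older edgeR method with the block or with a library left out. The share of all tested genes called in either direction also moved. In edgeR it was 0.965% without the block, 7.19% at an FDR of 0.05 and 36.2% with the block. In DESeq2 the share was 7.91% without the block and 15.8% with it. Of the 38 network genes, 3 were called in edgeR without the block, 13 in DESeq2, 13 at an FDR of 0.05, 21 in edgeR with the block (either method) and 19 in DESeq2 with it. Leaving out single libraries gave 1 (without FCN3 replicate 1 or 2) to 5 (without EV replicate 2). There the group with 1 library was assumed to vary like the other. The cause of these differences in count was not tested. The block removes the difference between replicate numbers from the spread. CDC25C had the fewest counts, and the standard error was largest for CCNA2.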
